A study of Mus musculus with 6 samples.

Results

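Potassium channel genes were compared between the hearing and the balance epithelia of the mouse inner ear. Members were all genes whose symbol starts with Kcn and that are read by at least 1 probe set naming no other gene, leaving out Kcnq1, Kcne1 and Kcnj10, the channel genes of endolymph secretion. This gave 81 of the 18193 genes named on the array, read by 163 probe sets. A probe set is a group of short oligonucleotides on the array that together give 1 value for a transcript. Each gene is represented by its probe set with the highest mean over all 6 arrays, called its brightest.

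The 6 arrays fall into 3 of cochlear and 3 of vestibular sensory epithelia, all from C3H mice of wild type genotype at postnatal day 2. The vestibular tissue joined the utricle and saccule with the anterior and lateral cristae. Each tissue was collected in 3 pools of 10 to 12 inner ears and kept the mesenchyme beneath it and the neurons attached to it, so every array reads a mixture of cell types. In such tissue, fewer cells of a type and less RNA per cell cannot be told apart. The sources used here do not say which pool went onto which array, so the p-values measure the spread between arrays, part of which may be technical.

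Potassium channels let potassium ions cross the cell membrane along their gradient and so set the resting potential, shape action potentials and carry potassium through epithelia. Pore-forming subunits assemble around the pore. In voltage-gated channels they open on depolarisation, in inward rectifiers they pass current best near rest, and in 2-pore-domain channels they leak at most voltages, while calcium-activated channels open when calcium rises in the cell. Auxiliary subunits (Kcne, Kcnab, Kcnip and Kcnmb) do not form the pore and alter its gating or its delivery to the membrane. In the inner ear, hair cells repolarise through potassium channels, and the fluid over their apical face is kept rich in potassium.

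Stretches from the promoters of some members called in either tissue are shown as examples of 3 short motifs, to set sequence beside the values that follow. They were picked with the calls known, and promoters of other called members hold these motifs too. Capitals mark the motif. Each stretch is from RefSeq on GRCm38.p6 and is read along the strand of the gene, ending at most 50 bases after its start. The TATA box searched was TATAAA and lies 29 bases before the start of Kcnj13 (chr1:87394741-87394770, minus strand) and 133 bases before a start of Kcnj16 (chr11:111019440-111019469, plus strand). The GC box searched was GGGCGG, shown at Kcnab1 (chr3:64949139-64949168, plus strand), Kcne2 (chr16:92292282-92292311, plus strand) and Kcnma1 (chr14:24004247-24004276, minus strand), at Kcne2 and Kcnma1 as its reverse complement CCGCCC. The E-box searched was CAGCTG, shown at Kcnk2 (chr1:189344194-189344223, minus strand) and Kcne4 (chr1:78816752-78816781, plus strand).
Kcnj13 TATA box: cctcacggacatTATAAAcacaggaatgta
Kcnj16 TATA box: gtccgcgtgcctTATAAAtacagcagagac
Kcnab1 GC box: ggttaaggtgggGGGCGGgaagacagggca
Kcne2 GC box: caactccgtgccCCGCCCtgtcaaggcatc
Kcnma1 GC box: ccaggcgcctccCCGCCCccctcccggcgc
Kcnk2 E-box: tgtagcctggaaCAGCTGgcaccatactct
Kcne4 E-box: cttctctcttcaCAGCTGcagagttcagag

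Promoters on mouse chromosome 18 were left out before entries were matched to genes by symbol. Of the 81 members, 63 matched an entry among those kept, as did 15 of the 20 called members. Kcnd1, Kcnk3, Kcnk6, Kcnn2 and Kcns2 had none there. Both strands of 300 bases per promoter were searched, and a GC box and an E-box can share a base with each other, while a TATA box shares none with either. The TATA box stood in 5.68% of the 88 member promoters and in 13.6% of all 32851. The GC box stood in 47.7% of the member promoters and in 35.7% of all, with a median G and C content of 58% against 52.7%. The E-box stood in 27.3% against 16.3%. Some genes have several entries that overlap, so the same site can count more than once, as an E-box of Kcnc2 does. These shares describe letters in a window and were not tested.

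Of the 81 members, 55 passed the filter on low values and were tested. All differences below are on the log2 scale, vestibule minus cochlea, so that 1 stands for a fold of 2 and a negative value for a gene higher in the cochlea. A gene was called at an adjusted p under 0.1 (limma, two-sided, Benjamini-Hochberg over all tested probe sets) with a fold of at least 1.3. By this measure 11 potassium channel genes were higher in the vestibule, or 20% of the 55, beside 15.1% of the 14184 genes tested. Another 9 were higher in the cochlea, or 16.4%, beside 7.97% of all genes tested. The remaining 35 were not called. The median difference was -0.03 over the 55 members and 0.03 over all genes tested. All vestibular arrays lay above all cochlear arrays for 12 members, beside 19.9% of all genes, and below them for 8 members, beside 12.4%. With 3 arrays against 3 an exact permutation test of a single gene cannot give a p below 0.1. The median SD of the members was 0.2 over cochlear and 0.15 over vestibular arrays.

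**Figure D1:**
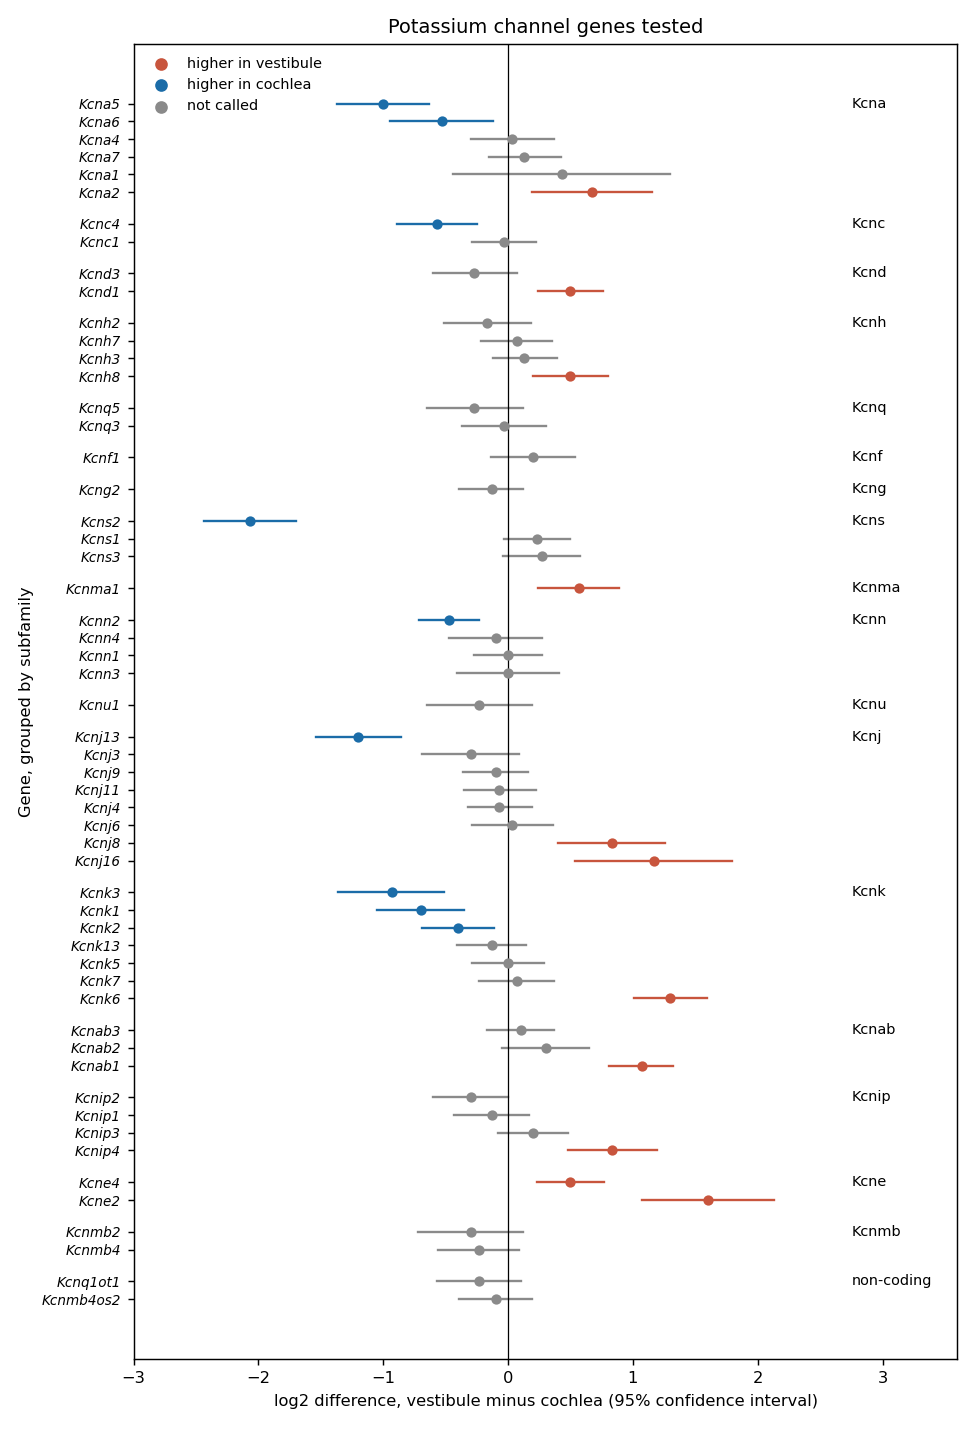
The 55 tested potassium channel genes, each at its log2 difference (x axis, vestibule minus cochlea) with a 95% confidence interval, grouped by subfamily from pore-forming to auxiliary and non-coding genes. Points run from -2.07 for Kcns2 to 1.60 for Kcne2, red where called higher in the vestibule, blue where called higher in the cochlea and grey where not called.

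By role, of 11 auxiliary genes tested, 4 were called towards the vestibule (Kcne2, Kcnab1, Kcnip4 and Kcne4) and 0 towards the cochlea, where the count at an unadjusted p under 0.05 was 0 as well (limma). These are 36.4% and 0% of the auxiliary genes tested. Kcnip2 lay just outside that limit towards the cochlea, at -0.30 with an unadjusted p of 0.0501 (limma). Of 42 pore-forming genes tested, 7 were called towards the vestibule and 9 towards the cochlea, or 16.7% and 21.4%. Among all genes tested the shares were 15.1% and 7.97%, so that few calls towards the cochlea would be found in any 11 genes. The median difference was 0.20 over the auxiliary and -0.03 over the pore-forming genes, and the difference between these groups was not tested.

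Markers of several cell types differed between the tissues too. Of 14 ganglion neuron markers tested, 11 were called towards the cochlea and 2 towards the vestibule, and their summed linear level was 9930 to 10500 on the cochlear and 5590 to 6040 on the vestibular arrays. Hair cell markers went the other way, with 7 of 12 called towards the vestibule and 1 towards the cochlea, at sums of 4260 to 5240 and 7320 to 8590. Markers of macrophages and blood vessels were also mostly higher in the vestibule. Of macrophage markers 10 of 11 were so called, with sums of 2080 to 2590 on cochlear and 7420 to 9020 on vestibular arrays, as were 6 of 7 endothelial markers, with sums of 946 to 1100 and 2550 to 3070. For pericytes and smooth muscle, 3 of 7 were called towards the vestibule and 1 towards the cochlea, with sums of 1700 to 2050 and 2390 to 3040.

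Melanocyte markers were higher in the vestibule in 5 of 6 (sums of 322 to 652 and 1390 to 1810), Schwann cell markers in 3 of 8 with 1 higher in the cochlea (9490 to 12600 and 19000 to 28700), mesenchymal markers in 5 of 9 with 1 higher in the cochlea (35100 to 48200 and 53300 to 58400), and general epithelial markers in 3 of 5 with 1 higher in the cochlea (8110 to 10200 and 12200 to 13800). Both tested red blood cell markers were higher in the vestibule, with sums of 121 to 206 and 245 to 263. Of 10 skeletal muscle markers 7 lay below the filter, and of the 3 tested 0 were called, with sums of 266 to 586 and 255 to 357. The part of each of these cell types in the differences of the potassium channel genes was not tested.

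**Figure D2:**
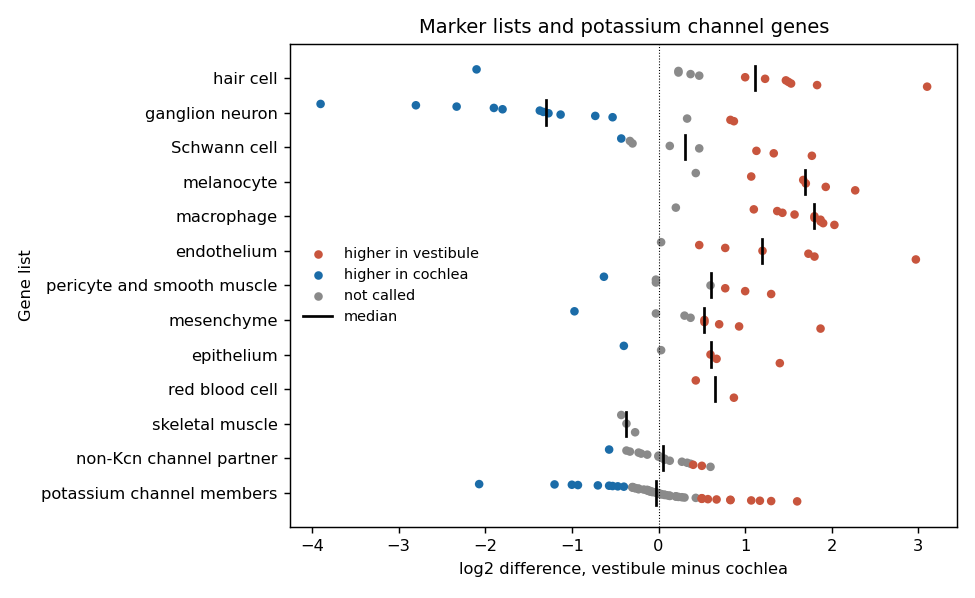
Log2 difference (x axis, vestibule minus cochlea) of each tested gene of the marker lists, of channel partners not named Kcn and of the 55 potassium channel members, 1 point a gene, with the median of each list as a bar. The medians run from -1.3 for ganglion neuron markers to 1.80 for macrophage markers, and that of the potassium channel genes is -0.03.

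Among the voltage-gated channels of the Kcna group, which in neurons limit repetitive firing, 2 genes were higher in the cochlea and 1 in the vestibule. Kcna5, a delayed rectifier subunit, read 5.3, 5.6 and 5.1 on the cochlear and 4.5, 4.4 and 4.1 on the vestibular arrays. All its cochlear arrays were the higher ones, and the difference was -1.0 ± 0.16 (SE, n = 3 and 3, limma adjusted p = 0.0032). Its vestibular mean of 4.33 was under the lowest mean kept by the filter, 4.68, and whether the transcript was detected there was not tested.

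Kcna6, another delayed rectifier subunit, read 6.3, 5.6 and 6.0 in the cochlea and 5.6, 5.3 and 5.4 in the vestibule, with 1 array of each tissue at the same value. Its difference was -0.53 ± 0.18 (limma adjusted p = 0.086), and the call was lost without cochlear array 1 or 3 or without any 1 of the vestibular arrays (limma adjusted p of 0.166 to 0.273). Kcna2, found along axons beside the nodes of Ranvier, read 7.1, 6.9 and 7.4 in the cochlea and 8.2, 7.8 and 7.4 in the vestibule. Its lowest vestibular array equalled the highest cochlear one. The difference of 0.67 ± 0.21 (limma adjusted p = 0.069) was lost without any 1 of the cochlear arrays or without vestibular array 1 or 2 (0.104 to 0.256), and it lay at -0.03 and 0.40 in the other tested probe sets of the gene, neither of which was called.

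Kcna1, named here after its values were seen, had the widest confidence interval of the members not called. It encodes the partner of Kcna2 in axonal channels. It read 8.9, 7.9 and 8.1 in the cochlea and 9.6, 8.5 and 8.1 in the vestibule, so that the array numbered 1 was the highest of its tissue in both. The difference was 0.43 with a 95% interval of -0.44 to 1.3 (limma adjusted p = 0.51), which leaves more than a fold of 2 in the vestibular direction within its range. Kcna5, Kcna1 and Kcna6 lie next to each other on chromosome 6 with no other protein-coding gene between them, and their differences were -1.0, 0.43 and -0.53.

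Of the other voltage-gated families, Kcnc and Kcnd each had 1 called gene of 2 tested. Kcnc4, a fast-inactivating subunit, read 6.6, 7.0 and 6.8 in the cochlea and 6.1, 6.2 and 6.4 in the vestibule, with no overlap. The difference was -0.57 ± 0.14 (limma adjusted p = 0.026) and was lost without vestibular array 1 or 2 (0.133 and 0.110). This probe set carries a suffix for sequence shared with other transcripts. The other tested probe set of Kcnc4, without the suffix, differed by 0.17 (limma adjusted p = 0.453), which reverses the sign.

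Kcnd1, a subunit of transient A-type channels, read 6.5, 6.3 and 6.5 in the cochlea and 7.0, 6.9 and 6.9 in the vestibule. Tissues did not overlap, and the difference was 0.50 ± 0.11 (limma adjusted p = 0.017). A dimmer probe set of the same gene read 4.9, 4.8 and 4.9 in the cochlea and 4.5, 4.6 and 4.6 in the vestibule, a difference of -0.30 in the opposite direction that stayed under the minimum fold (limma adjusted p = 0.099).

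In the ether-a-go-go family, Kcnh8 was the called gene of 4 tested. It read 6.9, 6.5 and 6.7 in the cochlea and 7.3, 7.1 and 7.2 in the vestibule, with no overlap, a difference of 0.50 ± 0.13 (limma adjusted p = 0.035). The call was lost without vestibular array 1 or 3 (0.154 and 0.127). Kcnh2, which carries the rapid delayed rectifier current of the heart, differed by -0.17 with an interval of -0.51 to 0.18. In the Kcnq family, whose members carry the M-current of neurons, neither tested gene was called, and the larger difference was that of Kcnq5, at -0.27 with an interval of -0.65 to 0.12.

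By its brightest probe set, Kcns2 had the largest difference of all members. It encodes a subunit that forms no channel by itself and modifies other voltage-gated channels. It read 6.8, 6.4 and 6.7 on the cochlear and 4.8, 4.3 and 4.6 on the vestibular arrays, so the tissues stood well apart. The difference was -2.07 ± 0.16, a fold of 4.19 (limma adjusted p = 5.7e-05). The vestibular mean of 4.57 was under the 4.68 at which the filter stood, and whether the transcript was detected in the vestibule was not tested. The mean over its probe sets differed by -1.12.

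The other modifier subunits did not show this. Kcns1 differed by 0.23 (interval -0.03 to 0.50), with its vestibular arrays all above its cochlear arrays, and Kcns3 by 0.27 (-0.04 to 0.58). Kcng2 differed by -0.13 (-0.39 to 0.12). Kcnf1, by its brightest probe set, differed by 0.20 (-0.14 to 0.54). A second probe set of Kcnf1 read 4.2, 4.1 and 4.0 in the cochlea and 5.4, 5.5 and 5.3 in the vestibule, and was called at 1.3 ± 0.12 (limma adjusted p = 1.1e-04). This probe set was singled out after its values were seen. Its cochlear mean of 4.1 was under the filter at 4.68, and it passed only through its vestibular values.

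Calcium-activated channels gave 1 call in each direction, in the genes known from hair cells. Kcnma1, the pore of the large-conductance channel that speeds hair cell repolarisation, read 5.8, 6.0 and 5.8 in the cochlea and 6.3, 6.7 and 6.3 in the vestibule. Tissues did not overlap, and the difference was 0.57 ± 0.14 (limma adjusted p = 0.028), lost without cochlear array 1 or 3 (0.107 and 0.103). The other tested probe sets of Kcnma1 moved the same way and further. One read 5.0, 4.3 and 4.6 in the cochlea and 7.1, 6.8 and 6.6 in the vestibule, a difference of 2.20 ± 0.20 (limma adjusted p = 1.2e-04), and another differed by 1.60 ± 0.21 (limma adjusted p = 0.0010). Both of these probe sets had cochlear means, 4.63 and 4.67, under the lowest mean kept by the filter, 4.68. They passed it only through their vestibular values, and whether they detected the transcript in the cochlea was not tested. By the mean of its probe sets Kcnma1 differed by 1.09.

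Kcnn2, the small-conductance channel coupled to the efferent synapse of hair cells, read 6.1, 6.0 and 6.0 in the cochlea and 5.6, 5.6 and 5.5 in the vestibule. Its SD was 0.06 in each tissue, and the difference was -0.47 ± 0.11 (limma adjusted p = 0.017). Hair cell markers as a list were higher in the vestibule, opposite to Kcnn2 and in the direction of Kcnma1. Kcnn1 and Kcnn3 differed by 0.00, with intervals of -0.27 to 0.27 and -0.41 to 0.41. Kcnu1, related to Kcnma1 and known from sperm, differed by -0.23 (-0.65 to 0.19). Of the 5 genes of the hair cell channel list 3 were read and the others are not analysed here. The remaining gene read, Kcnj2, lay below the filter, at 3.7, 3.5 and 3.7 in the cochlea and 3.4, 3.5 and 3.6 in the vestibule.

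Among 8 inward rectifiers tested, 2 were called towards the vestibule and 1 towards the cochlea. Kcnj13, found in ion-transporting epithelia, read 9.2, 8.7 and 8.8 in the cochlea and 7.8, 7.7 and 7.6 in the vestibule. Its lowest cochlear array stood well above its highest vestibular array, a difference of -1.20 ± 0.15 or a fold of 2.30 (limma adjusted p = 7.4e-04). Its promoter is the one shown above with a TATA box 29 bases before the start.

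Kcnj16 encodes a subunit that assembles with the product of Kcnj10. It read 7.2, 6.1 and 6.4 in the cochlea and 8.1, 7.5 and 7.6 in the vestibule, with no overlap but a wide cochlear spread, a difference of 1.17 ± 0.28 (limma adjusted p = 0.021). The call was lost without cochlear array 3 or vestibular array 1 (0.133 and 0.141), and a second probe set gave 1.10 and was called as well (limma adjusted p = 0.0094). Its partner Kcnj10, which is no member, differed by -0.07 ± 0.19 (limma adjusted p = 0.87). Kcnj2, the neighbour of Kcnj16 on chromosome 11, is the gene named above that lay below the filter.

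Kcnj8, the pore of an ATP-sensitive channel known from vascular smooth muscle and pericytes, read 6.8, 6.5 and 6.0 in the cochlea and 7.2, 7.3 and 7.3 in the vestibule. Its vestibular arrays were tight and all higher, a difference of 0.83 ± 0.19 (limma adjusted p = 0.017) that was lost without vestibular array 3 (0.102). Abcc9, the regulatory subunit that pairs with it and also a member of the pericyte list, read 7.7, 6.9 and 7.1 in the cochlea and 8.1, 7.8 and 7.6 in the vestibule and was not called (0.60 ± 0.22, limma adjusted p = 0.105). The other 5 tested inward rectifiers differed by -0.30 (Kcnj3) to 0.03 (Kcnj6).

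The 2-pore-domain channels, which hold the resting potential, had 3 genes higher in the cochlea and 1 in the vestibule of 7 tested. Kcnk6 was the one higher in the vestibule. It read 6.0, 6.0 and 5.8 in the cochlea and 7.2, 7.4 and 7.1 in the vestibule. Its gap between tissues was far wider than the spread within them, with SDs of 0.12 and 0.15. The difference was 1.3 ± 0.13, a fold of 2.46 (limma adjusted p = 1.8e-04).

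Kcnk1, a weakly rectifying relative of Kcnk6, read 10.3, 10.0 and 9.9 in the cochlea and 9.6, 9.2 and 9.3 in the vestibule. It went the opposite way, by -0.70 ± 0.15 (limma adjusted p = 0.015), with a second probe set at -0.33 that was not called. Kcnk3, an acid-sensitive channel, read 6.5, 5.9 and 5.9 in the cochlea and 5.1, 5.0 and 5.4 in the vestibule, again with all cochlear arrays higher. Its difference was -0.93 ± 0.19 (limma adjusted p = 0.0096). The other probe sets of Kcnk3 lay below the filter, with means of 4.4 and 3.8 that were the same in each tissue. Kcnk2, a channel opened by membrane stretch and by lipids, read 8.9, 8.7 and 8.7 in the cochlea and 8.4, 8.5 and 8.2 in the vestibule. Its arrays did not overlap, but the difference was the smallest of those called, -0.40 ± 0.13 (limma adjusted p = 0.067), and was lost without cochlear array 1 or vestibular array 1 or 3 (0.167 to 0.217).

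**Figure D3:**
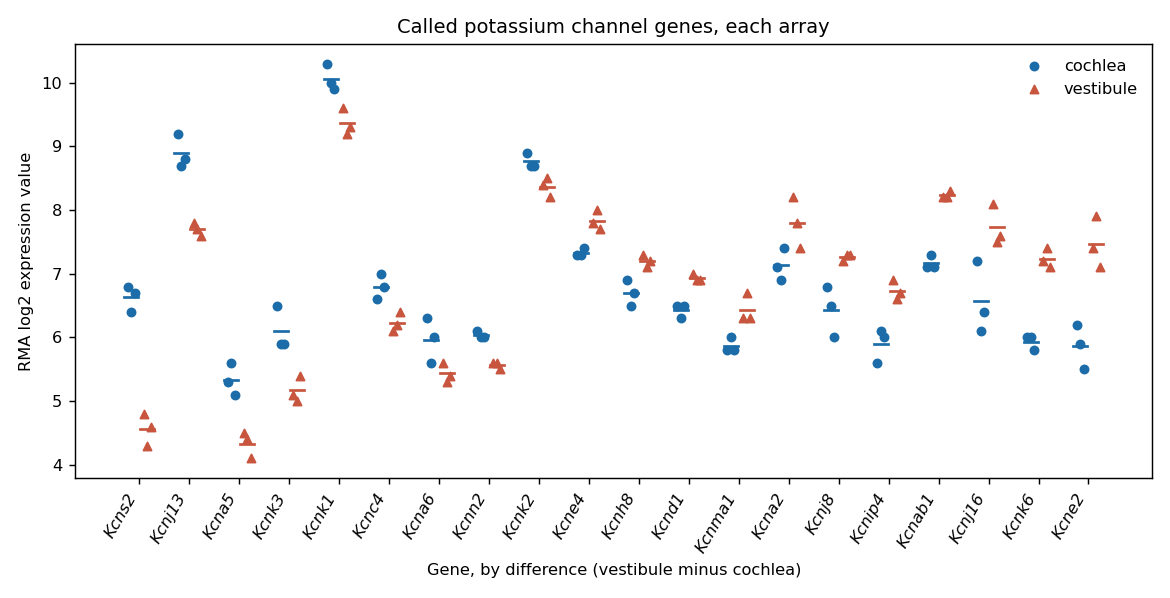
RMA log2 expression value (y axis) of the 20 called potassium channel genes on each array, cochlea as circles and vestibule as triangles, with the mean of each tissue as a bar, ordered from the largest difference towards the cochlea to the largest towards the vestibule. The tissues share a value for Kcna2 (7.4) and Kcna6 (5.6) and are apart for the other 18, and levels of different genes are not comparable.

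The largest difference towards the vestibule by brightest probe sets was that of an auxiliary subunit. Kcne2, a single-pass subunit that partners Kcnq1 in the stomach and thyroid and also binds Kcnh2, read 6.2, 5.9 and 5.5 in the cochlea and 7.4, 7.9 and 7.1 in the vestibule. All vestibular arrays lay above all cochlear ones, and the difference was 1.60 ± 0.23, a fold of 3.03 (limma adjusted p = 0.0017). Kcnq1 itself, which is no member, was also higher in the vestibule, by 2.17 ± 0.17 (limma adjusted p = 4.9e-05). Kcne4, which dampens several voltage-gated channels, read 7.3, 7.3 and 7.4 in the cochlea and 7.8, 8.0 and 7.7 in the vestibule, a smaller difference with no overlap, 0.50 ± 0.12 (limma adjusted p = 0.022).

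Kcnab1, the cytoplasmic subunit that gives Kcna channels fast inactivation, had SDs of 0.12 in the cochlea and 0.06 in the vestibule. It read 7.1, 7.3 and 7.1 in the cochlea and 8.2, 8.2 and 8.3 in the vestibule, a difference of 1.07 ± 0.11 (limma adjusted p = 2.9e-04), and its second probe set was called at 0.80 (limma adjusted p = 0.0042). The second probe set had a cochlear mean of 4.37, under the filter at 4.68, and passed only through its vestibular values. Of the Kcna pores Kcnab1 can join, Kcna2 was the one called in the same direction. Kcnab2 differed by 0.30 (interval -0.05 to 0.65) and Kcnab3 by 0.10 (-0.17 to 0.37), neither of them called.

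Kcnip4, a calcium sensor that binds Kcnd channels, read 5.6, 6.1 and 6.0 in the cochlea and 6.9, 6.6 and 6.7 in the vestibule. Tissues did not overlap, the difference was 0.83 ± 0.16 (limma adjusted p = 0.0067), and a second probe set gave 1.17 (limma adjusted p = 3.0e-04). That second probe set had a cochlear mean of 4.53, under the filter at 4.68, and passed only through its vestibular values. Kcnip1, Kcnip2 and Kcnip3 differed by -0.13, -0.30 and 0.20 and were not called. Neither tested subunit of the large-conductance channel was called beside Kcnma1, Kcnmb2 at -0.30 (-0.72 to 0.12) and Kcnmb4 at -0.23 (-0.56 to 0.09).

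The non-coding members gave 0 calls by their brightest probe sets, at unadjusted p of 0.147 for Kcnq1ot1 and 0.455 for Kcnmb4os2 (limma). Kcnq1ot1 is an imprinted RNA transcribed antisense to Kcnq1, and its tested probe sets did not move together. The brightest read 8.5, 8.6 and 8.5 in the cochlea and 8.1, 8.2 and 8.6 in the vestibule (-0.23). Of the 4 dimmer ones, 1 was called higher in the vestibule, at 6.4, 6.7 and 6.5 against 7.9, 7.4 and 7.9 (1.2 ± 0.16, limma adjusted p = 0.0012), and 1 higher in the cochlea, at 6.0, 5.8 and 6.3 against 5.4, 5.2 and 5.4 (-0.70 ± 0.15, limma adjusted p = 0.012). These dimmer probe sets were singled out after their values were seen.

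**Figure D4:**
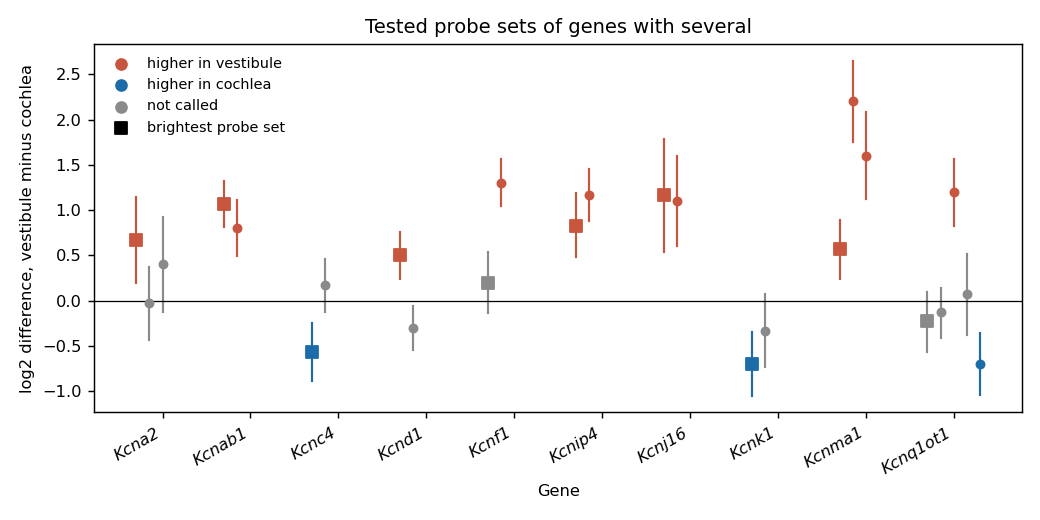
Log2 difference (y axis, vestibule minus cochlea, bars are 95% confidence intervals) of every tested probe set of 10 genes, the brightest as a square and the others as circles. Shown are the genes with several tested probe sets of which at least 1 was called, and those with none called are left out. The probe sets lie on 1 side of 0 for Kcnab1, Kcnf1, Kcnip4, Kcnj16, Kcnk1 and Kcnma1, and on both sides for Kcna2, Kcnc4, Kcnd1 and Kcnq1ot1. The dimmer probe sets shown for Kcnab1, Kcnf1, Kcnip4 and Kcnma1 passed the filter only through their vestibular values.

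The 35 members tested and not called lay between -0.30 and 0.43. For 27 of them the 95% interval stayed within a fold of 1.5 in both directions, and 0 had an unadjusted p under 0.05 (limma). For the other 8 a fold above 1.5 in at least 1 direction remains within the interval.

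The 26 members below the filter had means of 3.32 to 4.67. Kcnt1 (4.67) lay just outside the filter and Kcnk13 (4.70, a difference of -0.13) just inside. Among the 26, 5 had arrays that did not overlap between tissues, named here after their values were seen. Of all genes that passed the filter, 19.9% had all vestibular arrays above and 12.4% all cochlear arrays above. No such share was taken over genes below the filter, so whether 5 of 26 differs from other genes there was not tested. Kcnt2, a sodium-activated channel, read 3.4, 3.2 and 3.6 in the cochlea and 4.3, 4.2 and 4.1 in the vestibule (0.80), and Kcnv1, a modifier subunit, read 4.3, 4.2 and 4.1 against 4.8, 4.6 and 4.8 (0.53). Kcnc2 went the other way, at 4.3, 4.7 and 4.8 against 4.2, 4.1 and 3.9 (-0.53). Kcnj12 and Kcnmb4os1 differed by -0.20 and 0.20. The other probe sets of Kcnv1, also below the filter, differed by -0.33 and 0.47, each with arrays that did not overlap. With no filter, limma called Kcnt2 (adjusted p = 0.0048), Kcnv1 (0.016) and Kcnc2 (0.066).

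Proteins that potassium channels bind but that are not named Kcn were read in 21 of 22 genes listed, and 18 were tested. Of these, 2 were called towards the vestibule and 1 towards the cochlea, with a median difference of 0.05. Among all genes tested, 15.1% and 7.97% were so called, so the partners were not called more often than other genes. Dpp6, a partner of Kcnd channels, read 5.8, 5.7 and 5.7 in the cochlea and 5.2, 5.3 and 5.0 in the vestibule (-0.57 ± 0.12, limma adjusted p = 0.012), the direction opposite to Kcnd1. Lrrc26, a partner of Kcnma1, read 5.6, 5.4 and 5.6 against 5.9, 5.9 and 6.0 (0.40 ± 0.11, limma adjusted p = 0.044), and Akap9, a scaffold of Kcnq1 channels, read 9.7, 9.7 and 9.3 against 10.1, 9.8 and 10.3 (0.50 ± 0.17, limma adjusted p = 0.084). Leaving out 1 array ended the call of Lrrc26 without cochlear array 2 or any 1 of the vestibular arrays, where the difference was 0.33 to 0.42, and that of Akap9 without each array but vestibular array 2 (0.37 to 0.57).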

How the data were processed

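RNA was amplified, labelled with biotin and hybridised to Affymetrix mouse arrays. The authors made the deposited log2 values from them with RMA, quantile normalization included, and Present calls with MAS5 (versions of both not given in the sources used here). Deposited values carry 1 decimal and lie between 2.8 and 15, the array medians being 5.6 to 5.7, and no scaling was added. Arrays of 1 tissue correlated at 0.981 to 0.993 and arrays of different tissues at 0.945 to 0.961, and no array was a copy of another. The number of arrays, 3 per tissue, limits the precision.

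Probe sets were named from the platform annotation, with 1 gene for 34945, several for 932 and none for 9160, besides 64 controls, and 34741 symbols were updated through the Entrez number. Since Present calls need probe-level values not used here, the filter kept as many probe sets as the methods did, by mean log2 value, down to 4.68. Tissues were compared with limma 3.58.1 (lmFit and eBayes) in R 4.3.3 with the package data.table, version 1.17.8, and the fit was tested on simulated data. Figures and promoter searches used numpy 2.4.6, pandas 2.3.3 and matplotlib 3.10.9 in Python 3.11.15, with promoters on mouse chromosome 18 left out. Summed levels of marker lists are sums of 2 to the power of the log2 value.

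The members, the gene lists and the tests were chosen with earlier results of these data known. Genes are named where called, where they are hair cell channels from the list used, where they differ most in a subfamily without a call, where a partner was called, or where they lie beside the filter. Any other gene given a value, such as uncalled relatives of a called gene, was chosen after its values were seen. The alternatives were no filter, a stricter filter, median centring, a second quantile normalization, adding to each value a random one of at most 0.05, a plain t-test in place of limma, array weights or a trend in limma, a block for the replicate number, leaving out each array, a threshold of 0.05 for the adjusted p, dropping the minimum fold, averaging the probe sets of a gene, calling from any of them, and no probe sets with the suffix _x_at or _s_at.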

Additional observations from a re-analysis of the deposited data

How the results depend on the processing

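Of the 20 called potassium channel genes, 9 kept their direction and their call under every alternative in which they were tested (Kcna5, Kcnab1, Kcne2, Kcne4, Kcnip4, Kcnj13, Kcnk6, Kcnn2 and Kcns2), and 11 lost the call under at least 1. Of these 9, Kcna5, Kcnn2 and Kcns2 did not pass the stricter filter and were not tested there. Kcna5, Kcne2, Kcne4, Kcnj13, Kcnk6 and Kcnn2 are read by 1 probe set each. For them, averaging probe sets or leaving out suffixes could not change the difference. Kcna5 and Kcns2 passed the main filter of 4.68 through their cochlear values, with vestibular means of 4.33 and 4.57. The counts of 11 genes called towards the vestibule and 9 towards the cochlea became 11 and 4 with the stricter filter of 20000 probe sets, which left 29 members to test, and 6 and 4 with a plain t-test in place of limma, which called no member besides these 20. They became 13 and 9 with no filter, 13 and 10 with any probe set, 10 and 6 with the mean of the probe sets, and 10 and 7 at an adjusted p under 0.05. Leaving out 1 array gave 8 to 10 and 6 to 10. Kcnc4 reversed to 0.17 without probe sets of the suffix _x_at or _s_at, Kcnd1 fell to 0.03 and Kcnf1 gained a call at 0.75 with the mean of the probe sets. With the replicate number as a block (replicate block) the counts were 9 and 8, without Kcna2, Kcnj8 and Kcnk2. Arrays of the same number deviated together at r of 0.217, 0.153 and -0.001, those numbered 3 being the lowest. Between arrays of different numbers r ran from -0.224 to 0.029. The sources used here do not say whether the numbers mark pairs, and this was not tested. Among the channel partners, the counts ran from 0 to 4 in the vestibule and 0 to 3 in the cochlea.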
